A study of Rattus norvegicus with 6 samples.

Results

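The genes described here are Fkbp5 and 7 others tied to glucocorticoid signalling: Tsc22d3, Zbtb16, Klf9, Errfi1, Nr3c1, Hsd11b1 and Fkbp4. They were chosen by name, with their difference between phenolphthalein and vehicle already known, so that difference is described here and not tested. All 8 were measured, by 18 probes, and all 8 belonged to the 12269 named genes that passed the filter on dim signal (a signal well above background in 3 or more of the 6 animals). The samples were renal cortex from 6 male Sprague-Dawley (Crl:CD(SD)) rats, bought at an age of 5 weeks and kept on a basal diet. For 4 weeks, 3 rats were given corn oil, the vehicle, and the other 3 were given 1000 mg/kg/day of phenolphthalein, a pH dye formerly used in laxatives. Each rat's total RNA was labelled with Cy3 and hybridised to 1 Agilent array. The design text calls the 3 samples of a group biological replicates. Levels are log2 intensities relative to the 75th percentile of the array, so a level of 0 is that percentile and a difference of 1 is a doubling.

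Glucocorticoids, corticosterone in the rat, act through the glucocorticoid receptor, which is encoded by Nr3c1. The receptor waits in the cytoplasm in a complex with Hsp90 and cochaperones. Fkbp4 (FKBP52) favours hormone binding and transport to the nucleus, while Fkbp5 (FKBP51) lowers hormone affinity and is itself a receptor target, which makes a negative feedback loop. In the kidney, Hsd11b1 regenerates active hormone and Hsd11b2 inactivates it in the distal nephron, where the mineralocorticoid receptor would otherwise bind it.

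Promoter sequences from RefSeq, on the GRCr8 assembly, were at hand for 6 of the 8 genes in 9 windows, each from 250 bases before to 50 bases after a transcription start. Tsc22d3 had 3 windows and Nr3c1 had 2. Of these, 3 are shown, read on the strand of the gene, because Fkbp5 and Fkbp4 are paralogous cochaperones with opposite effects on the receptor and Tsc22d3 is a textbook receptor target. Capitals mark matches on either strand to GGGCGG (GC box), CCAAT or TATAAA. The Fkbp5 window is chr20:6543506-6543805 on the minus strand, the Fkbp4 window chr4:163397869-163398168 on the minus strand, and the Tsc22d3 window, the 1 of its 3 with a TATAAA, chrX:109009985-109010284 on the minus strand.
Fkbp5: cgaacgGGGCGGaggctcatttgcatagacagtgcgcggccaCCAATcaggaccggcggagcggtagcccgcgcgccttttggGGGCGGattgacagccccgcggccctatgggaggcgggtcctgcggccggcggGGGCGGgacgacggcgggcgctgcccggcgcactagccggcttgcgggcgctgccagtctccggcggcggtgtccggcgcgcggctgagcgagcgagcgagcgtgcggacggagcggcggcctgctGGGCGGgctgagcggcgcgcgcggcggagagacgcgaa
Fkbp4: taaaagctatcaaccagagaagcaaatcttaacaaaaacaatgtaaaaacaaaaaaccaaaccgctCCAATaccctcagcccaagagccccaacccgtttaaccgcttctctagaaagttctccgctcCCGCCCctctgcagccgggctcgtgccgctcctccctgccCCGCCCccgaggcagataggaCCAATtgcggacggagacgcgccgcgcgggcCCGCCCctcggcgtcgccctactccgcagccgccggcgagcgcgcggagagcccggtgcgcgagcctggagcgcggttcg
Tsc22d3: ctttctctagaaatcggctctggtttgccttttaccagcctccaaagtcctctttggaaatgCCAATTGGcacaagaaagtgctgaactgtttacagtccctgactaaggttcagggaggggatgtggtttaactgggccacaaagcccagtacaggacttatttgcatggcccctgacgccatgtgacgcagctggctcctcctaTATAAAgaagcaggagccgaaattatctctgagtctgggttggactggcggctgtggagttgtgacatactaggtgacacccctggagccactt
The Fkbp5 window held 4 GC boxes and 1 CCAAT, with a GC content of 77.0%. The Fkbp4 window held 3 GC boxes and 2 CCAAT matches, with a GC content of 63.3%. The Tsc22d3 window shown, picked for its TATAAA, had a GC content of 50.7% and held 1 TATAAA, no GC box, and 2 CCAAT matches that overlap on opposite strands. The other 2 windows of Tsc22d3 held 3 GC boxes and 1 GC box, with no CCAAT or TATAAA. Their GC contents were 73.0% and 52.0%. The hexamer of the receptor's binding element, AGAACA (either strand), was in 0 of the 9 windows and in 20.7% of all 33469 promoter windows of this length. The full palindrome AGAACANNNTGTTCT was in 0 of the 9 and in 0.0149% of all. GC boxes were in 7 of the 9 windows (33.1% of all), CCAAT in 5 (37.5% of all) and TATAAA in 2 (14.2% of all). These counts describe letters in short windows and say nothing of sites elsewhere.

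Fkbp5 was higher in all 3 phenolphthalein arrays than in any vehicle array, by each of its 3 probes. By the brightest probe its level was 3.16, 1.52 and 3.06 in vehicle replicates 1 to 3 and 4.01, 3.84 and 3.86 in phenolphthalein replicates 1 to 3. The array of vehicle replicate 2 was far below the rest, and the phenolphthalein arrays lay close together. The group means were 2.58 ± 0.92 and 3.90 ± 0.09 (SD, n = 3 each), a difference of 1.32 or 2.5-fold. The gap between the highest vehicle and the lowest phenolphthalein array was 0.69.

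The other 2 probes of Fkbp5 gave the same order. The second read 0.94, -0.88 and 0.73 in vehicle and 1.81, 1.54 and 1.63 in phenolphthalein, a difference of 1.40. The third read -0.70, -2.12 and -0.94 in vehicle and 0.41, -0.13 and 0.04 in phenolphthalein, a difference of 1.36. Without vehicle replicate 2, the 3 probes differed by 0.79, 0.83 and 0.93, or 1.73-fold to 1.90-fold, with no overlap between the groups. Much of the size thus came with 1 vehicle animal, while the order of the groups did not. Of the 34417 items tested (named genes and unnamed probes), 0.247% had a difference at least as high as the 1.32 of Fkbp5. That share rests on all 6 arrays, vehicle replicate 2 included. Because Fkbp5 was chosen with its difference known, the share describes size only and is no test.

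The spread of Fkbp5 was wider in vehicle by all 3 probes, and by unequal amounts. The SD in vehicle and phenolphthalein was 0.92 and 0.09 by the brightest probe, 1.00 and 0.14 by the second and 0.76 and 0.28 by the third. The vehicle spread came from replicate 2, since replicates 1 and 3 lay as close together (3.16 and 3.06 by the brightest probe) as the phenolphthalein arrays. Over all items the median SD was 0.12 in vehicle and 0.15 in phenolphthalein. With 3 arrays per group, an SD is itself imprecise.

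**Figure D1:**
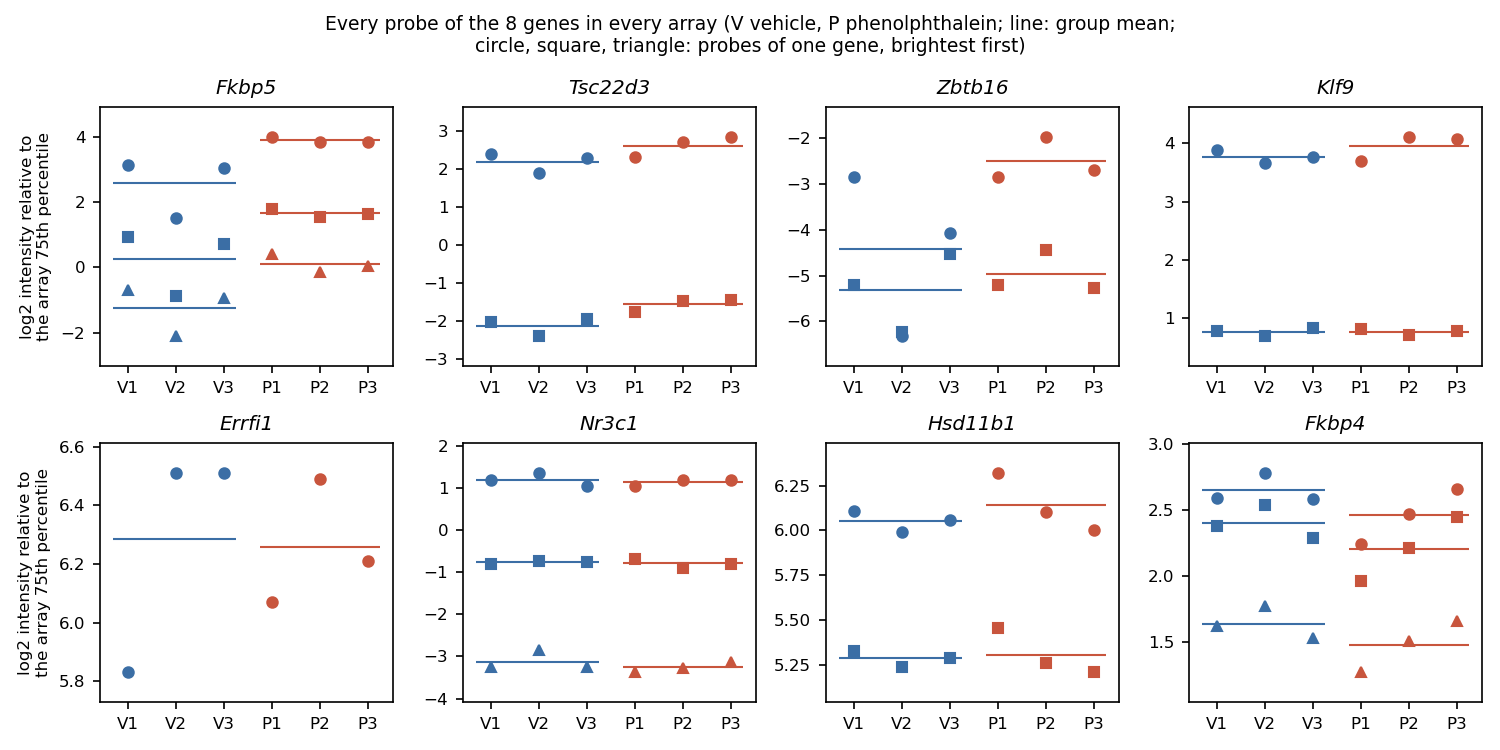
Log2 intensity relative to the array's 75th percentile (y axes, with a scale of their own for each gene) for every probe of the 8 genes in the 3 vehicle (V) and 3 phenolphthalein (P) arrays; lines are group means. All 3 probes of Fkbp5 lie higher in P than in V, with V2 lowest, and the probes of Nr3c1 stay level.

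Tsc22d3, which encodes the glucocorticoid-induced leucine zipper GILZ, an anti-inflammatory transcriptional regulator, leaned the same way. Its brighter probe read 2.38, 1.88 and 2.29 in vehicle and 2.30, 2.70 and 2.84 in phenolphthalein, so that phenolphthalein replicate 1 lay within the vehicle range. The means were 2.18 ± 0.27 and 2.61 ± 0.28 (SD, n = 3 each), a difference of 0.43. Its dimmer probe read -2.02, -2.40 and -1.93 in vehicle and -1.75, -1.48 and -1.45 in phenolphthalein, a difference of 0.56 with no overlap. Vehicle replicate 2 was again the lowest by both probes, and without it the differences were 0.28 and 0.42.

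Zbtb16 encodes PLZF, a zinc finger transcription repressor induced by glucocorticoids in many tissues, and it was dim. By its brighter probe it read -2.85, -6.33 and -4.06 in vehicle and -2.84, -1.97 and -2.70 in phenolphthalein. By this probe only vehicle replicate 2 was not well above background. The groups were parted by 0.009 between vehicle replicate 1 and phenolphthalein replicate 1, which amounts to a tie. The means were -4.41 ± 1.77 and -2.50 ± 0.47 (SD, n = 3 each), a difference of 1.91. That size rests on the dim array: it was 0.95 without vehicle replicate 2 and 1.02 with normexp background correction, which compresses dim signal. The other probe read -5.21, -6.23 and -4.53 in vehicle and -5.21, -4.44 and -5.26 in phenolphthalein. Those groups overlapped, and the difference of 0.35 became -0.10 without vehicle replicate 2.

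Klf9, a Krüppel-like factor that answers to glucocorticoids, thyroid hormone and the clock, had a brighter probe that leaned higher and another that stayed level. The brighter one read 3.88, 3.67 and 3.76 in vehicle and 3.69, 4.11 and 4.07 in phenolphthalein, a difference of 0.18 with overlap. The other read 0.78, 0.68 and 0.83 against 0.81, 0.70 and 0.78. Its difference was -0.002, and its groups lay within one another.

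Errfi1 encodes MIG6, a feedback inhibitor of the EGF receptor that glucocorticoids induce in several tissues, and had 1 probe. It read 5.83, 6.51 and 6.51 in vehicle and 6.07, 6.49 and 6.21 in phenolphthalein. The lowest array here was vehicle replicate 1, and the phenolphthalein values all lay within the vehicle range. The means were 6.28 ± 0.39 and 6.26 ± 0.21 (SD, n = 3 each).

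The receptor itself, Nr3c1, stayed level by its 3 probes. The brightest read 1.19, 1.35 and 1.03 in vehicle and 1.05, 1.19 and 1.18 in phenolphthalein, a difference of -0.05. The other 2 probes differed by -0.02 and -0.14, and all 3 had overlapping groups. Among the vehicle arrays, replicate 2, with the least Fkbp5, had the most Nr3c1 by each of the 3 probes.

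Hsd11b1, which turns inert 11-dehydrocorticosterone back into corticosterone, also overlapped between the groups. Its brighter probe read 6.11, 5.99 and 6.06 in vehicle and 6.32, 6.10 and 6.0 in phenolphthalein, a difference of 0.09. The other probe differed by 0.02. In both, phenolphthalein replicate 1 was the highest array.

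Fkbp4, the cochaperone with the opposite effect to Fkbp5 on the receptor, leaned slightly lower by all 3 probes. The brightest read 2.59, 2.78 and 2.58 in vehicle and 2.24, 2.47 and 2.66 in phenolphthalein, a difference of -0.19. The other 2 probes differed by -0.20 and -0.16, each with overlapping groups. Phenolphthalein replicate 1, with the most Fkbp5, had the least Fkbp4 by every probe, and phenolphthalein replicate 3 stood within the vehicle range.

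Over the probes used for the 8 genes (the brightest of each), 5 differences were above 0 and 3 below, with a median of 0.13 against -0.02 over all items. Groups that did not overlap were found for 2 of the 8, both higher, Fkbp5 and the near tie of Zbtb16. Over all items, 6.59% were higher and 9.11% lower without overlap. Because the genes were chosen on this contrast, nothing is read from those counts. In the fit across all items (limma, Benjamini-Hochberg adjusted p under 0.05), 0 of the 8 passed, as did 0 items in all: 0% higher and 0% lower, with a smallest adjusted p of 0.307.

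**Figure D2:**
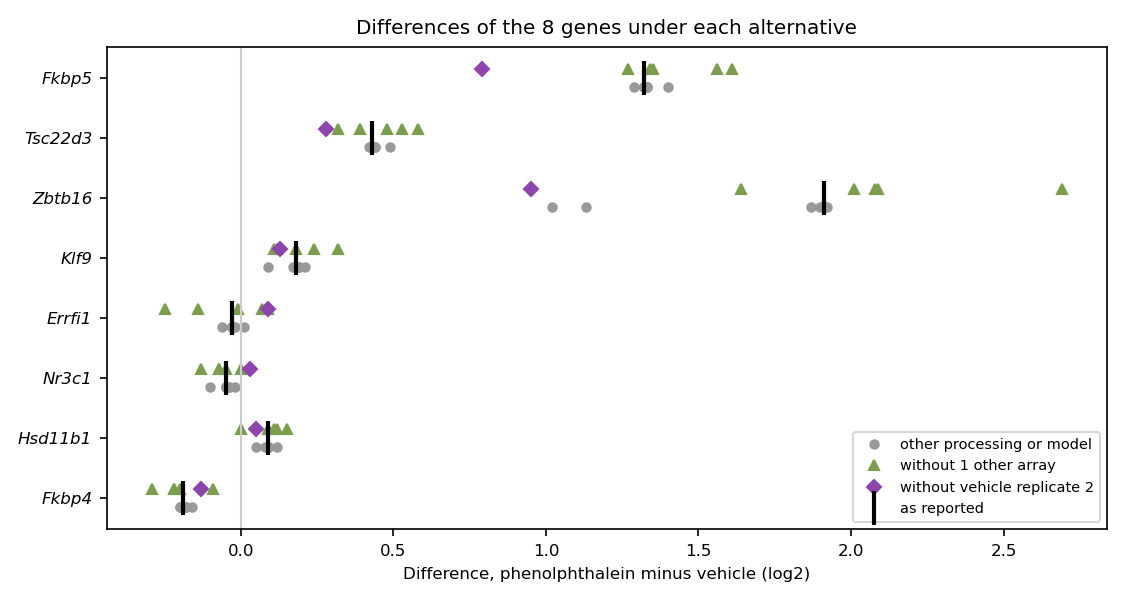
Difference between phenolphthalein and vehicle (log2, x axis) for each of the 8 genes as reported (black bar), under other processing or models (grey) and without 1 array (triangles; diamonds mark the value without vehicle replicate 2). Without vehicle replicate 2, Fkbp5 is at 0.79 and Zbtb16 at 0.95. Over all alternatives, Errfi1 spans -0.25 to 0.09, Nr3c1 -0.13 to 0.03 and Hsd11b1 -0.00 to 0.15.

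Within the vehicle group, Fkbp5, Zbtb16 and Tsc22d3 were each lowest in replicate 2. Relative to the mean of vehicle replicates 1 and 3, replicate 2 was at -1.59 for Fkbp5 and -0.46 for Tsc22d3, and values that low or lower were found in 0.482% and 8.09% of all items. For Zbtb16, the value of -2.88 has no exact size, because the probe was not well above background on that array. Klf9 was at -0.15 and Hsd11b1 at -0.09, while Errfi1 (0.34), Nr3c1 (0.24) and Fkbp4 (0.19) lay the other way. Replicate 2 was the lowest vehicle array for 5 of the 8 genes, against 40.0% of all items. The genes were chosen with their group difference known, and that difference includes replicate 2. These shares thus describe size only and are no test. All vehicle arrays shared a slide and a scan day, so these low values lie within 1 slide. Replicate 2 also had the smallest share of probes well above background, 64.8% against 69.4% to 72.1% on the other 5 arrays, and the part of this in the low values was not tested.

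Within the phenolphthalein group, replicate 1 lay on a slide of its own and replicates 2 and 3 shared another. Relative to the mean of replicates 2 and 3, replicate 1 was at 0.15 for Fkbp5, -0.46 for Tsc22d3, -0.50 for Zbtb16, -0.40 for Klf9 and -0.32 for Fkbp4. These are the brightest probes, and the others differed from them. The second probe of Tsc22d3 had an offset of -0.29 beside a difference between the groups of 0.56. The other 2 probes of Fkbp5 had offsets of 0.23 and 0.45 beside differences of 1.40 and 1.36. No slide held both groups, so slide and group cannot be told apart for any value here.

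Across the 6 arrays, Pearson's r with Fkbp5 was 0.943 for Zbtb16 and 0.822 for Tsc22d3, and fell to 0.684 and 0.506 without vehicle replicate 2. It was 0.551 for Klf9, 0.535 for Hsd11b1, -0.364 for Errfi1, -0.659 for Nr3c1 and -0.724 for Fkbp4. These values are descriptions over 6 arrays that include the group difference, and carry no test. Among 11503 other named genes well above background on all arrays, the 5 with the profile most like Fkbp5 were N4bp3 (r = 0.997), Tnik (0.992), Pou6f1 (0.988), Pard3b (0.987) and Zbtb8a (0.986). Their range over the arrays was small, from 0.28 for Pard3b to 0.89 for Tnik, and their differences between the groups from 0.16 to 0.46. An r of at least 0.9 was reached by 0.869% of the genes compared.

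Other glucocorticoid-induced genes did not follow Fkbp5 as a group. Of 50 listed, 42 were tested, 18 with differences above 0 and 24 below, and their median was -0.05 against -0.02 over all items. In the limma fit 0 rose and 0 fell at an adjusted p under 0.05. An unadjusted p under 0.05 was reached by 1 higher and 1 lower gene, where the whole fit had 3.91% higher and 4.96% lower.

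The 4 with the smallest p were Ddit4, Pck1, Dusp1 and Cdkn1c. Ddit4 (REDD1), an inhibitor of mTORC1 that stress and glucocorticoids induce, read 2.71, 2.59 and 3.29 in vehicle and 1.83, 2.24 and 1.38 in phenolphthalein. That is the reverse of Fkbp5, differing by -1.05 (SE 0.26; adjusted p = 0.452 by limma), and its 3 probes were all lower. Pck1, the gluconeogenic enzyme PEPCK of the proximal tubule, read 7.27, 7.36 and 7.32 in vehicle and 7.61, 7.46 and 7.71 in phenolphthalein, differing by 0.27 (SE 0.07; adjusted p = 0.458 by limma). The phosphatase gene Dusp1 was at -0.34 (SE 0.16) and the cell cycle inhibitor Cdkn1c at 0.25 (SE 0.13), with overlap in both. Of the 5 tested probes of Cdkn1c, 4 were higher and 1 was lower, at -0.02.

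Per1, and Sgk1, which was singled out after its values were seen, are classic fast targets of the receptor. Within vehicle they were lowest in replicate 2, as were Ddit4 and Fkbp5. For Sgk1 and Ddit4, unlike Fkbp5, replicate 2 lay near replicate 1, and replicate 3 stood apart as the highest. Within phenolphthalein, Per1 and Sgk1 differed more between animals than Fkbp5. Sgk1, a kinase that promotes sodium uptake, read 2.79, 2.54 and 3.76 in vehicle and 1.80, 3.45 and 2.00 in phenolphthalein. The clock gene Per1 read -1.50, -1.90 and -1.12 in vehicle and -2.85, -1.24 and -2.28 in phenolphthalein. Both, like Ddit4, were highest of the phenolphthalein arrays in replicate 2, while Fkbp5 spanned 0.16 over those arrays. Of the 42 genes, 18 were highest in phenolphthalein replicate 2 among the phenolphthalein arrays, against 30.1% of all items. In vehicle replicate 2, 16 of the 42 had their lowest vehicle value, near the 40.0% of all items.

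**Figure D3:**
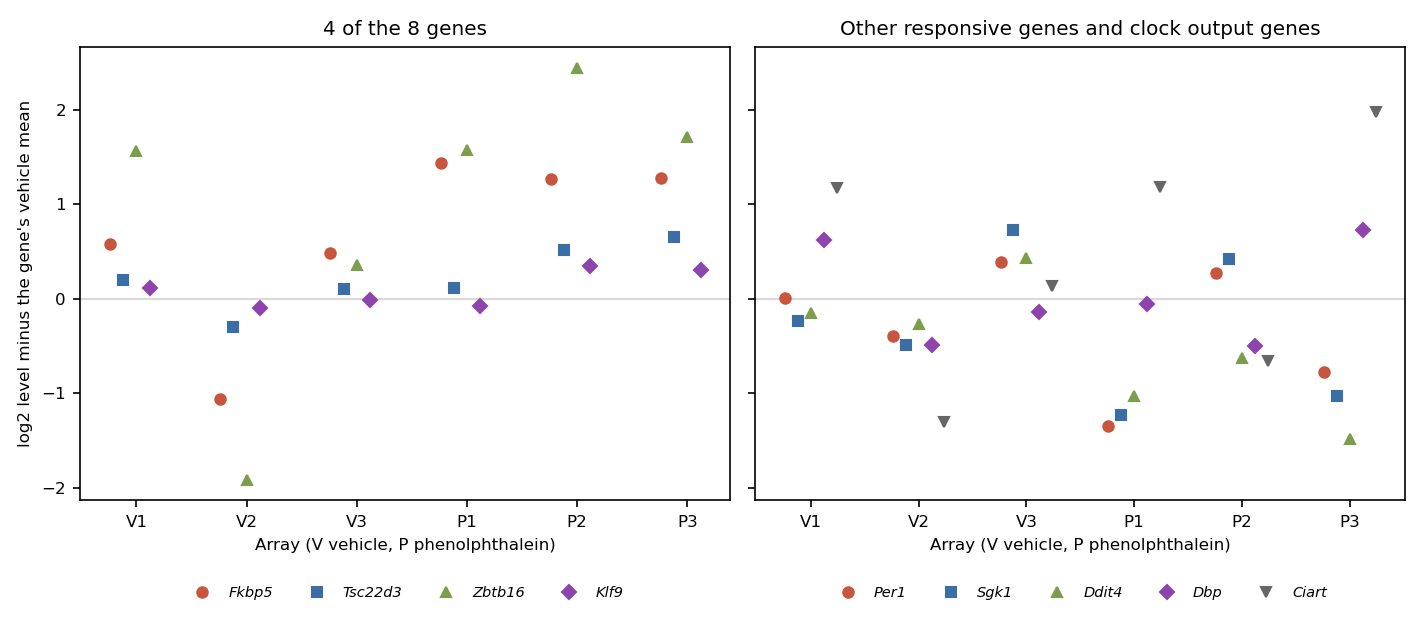
Log2 level minus the gene's own vehicle mean (y axis) in each array, for 4 of the 8 genes (left) and for Per1, Sgk1, Ddit4, Dbp and Ciart (right). Fkbp5 and Zbtb16 are lowest in V2. Fkbp5 is higher in every P array than in any V array, while Zbtb16 is level in V1 and P1. Per1, Sgk1 and Ddit4 are higher in P2 than in P1 and P3.

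Genes of inflammation that glucocorticoids repress leaned lower with phenolphthalein. Of 23 listed, 17 were tested, 14 with differences below 0 and 3 above, with a median of -0.26 against -0.02 over all items. The median was -0.11 without vehicle replicate 2 and -0.15 without phenolphthalein replicate 1. At an unadjusted p under 0.05, 3 were lower, Ptgs2 among them, and 0 higher, where the whole fit had 4.96% lower and 3.91% higher. In the limma fit 0 passed at an adjusted p under 0.05 in either direction. Ptgs2 is in these counts only because it passed the filter on dim signal through the vehicle group. With the filter on all 6 arrays, which left Ptgs2 out, the median of the list was -0.25. The inducible cyclooxygenase gene Ptgs2 (COX-2) read -4.89, -5.13 and -4.46 in vehicle and -5.93, -6.35 and -5.81 in phenolphthalein. It was well above background on 3 vehicle arrays and 1 phenolphthalein array, so the size of its difference is not given. The interferon regulator Irf7 was at -1.01 (SE 0.27), the matrix protease Mmp9 at -0.68 (SE 0.19) and the macrophage growth factor Csf1 at -0.26 (SE 0.12). Without vehicle replicate 2, Irf7 was at -0.75 and Csf1 at -0.15. That array was the highest of the vehicle arrays for 13 of the 17 genes, against 28.3% of all items.

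Most immune cell markers also had differences below 0, though none passed the test. Of 12 macrophage markers, 11 were tested and 10 had differences below 0, with a median of -0.37, or -0.24 without vehicle replicate 2. Their summed level, in units of the array's 75th percentile, was 60.1 to 71.6 in vehicle and 46.4 to 56.3 in phenolphthalein. All 10 T and NK cell markers had differences below 0, with summed levels of 2.79 to 3.86 and 1.98 to 2.64. Their median was -0.54, or -0.31 with normexp background correction and -0.37 without vehicle replicate 2. The defining markers Cd68, Csf1r, Cd3d and Cd3e were measured on all arrays, and of these lists Cd163 was not tested. In the limma fit 0 markers of either list passed. At an unadjusted p under 0.05, the lower genes numbered 7 in the macrophage list and 4 in the other, where the whole fit had 4.96% lower. The macrophage gene Mrc1 was higher by 1.1, where the whole fit had 3.91% higher. Vehicle replicate 2 had the highest vehicle value for 10 of the 11 and 9 of the 10, against 28.3% of all items. In bulk tissue, fewer cells of a type and less RNA per cell cannot be told apart. The part of these markers in the difference of Fkbp5 was not tested.

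The receptor's chaperones, other than Fkbp4, centred on no change. Of 22 listed, 20 were tested, 8 with differences above 0 and 12 below, with a median of -0.04. The limma fit called 0 of them. An unadjusted p under 0.05 was reached by 1 higher and 2 lower genes, where the whole fit had 3.91% higher and 4.96% lower. Ppid (cyclophilin 40), which like Fkbp5 binds Hsp90 through a TPR domain, read 3.59, 3.63 and 3.49 in vehicle and 3.75, 3.76 and 3.77 in phenolphthalein. Its difference was 0.19 (SE 0.06, limma adjusted p = 0.486), with no overlap, and its 4 probes were all higher. Hsph1 was at -0.42 (SE 0.16), the Hsp70 cochaperone Bag1 at -0.19 (SE 0.08) and Fkbp8 at -0.14 (SE 0.07). The Hsp90 genes Hsp90aa1 and Hsp90ab1, named for their place in the complex and not by the rule, were at 0.15 (SE 0.10) and 0.17 (SE 0.09).

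Other FK506-binding proteins had small differences. Of 15 family members and relatives listed, 13 were tested, with differences from -0.22 to 0.16 and a median of -0.007, 6 above 0 and 7 below. In the limma fit 0 passed at an adjusted p under 0.05. An unadjusted p under 0.05 was reached by 3 lower and 0 higher genes, where the whole fit had 4.96% lower and 3.91% higher. They were Fkbp2 (-0.15, SE 0.05), the calcineurin and ryanodine receptor partner Fkbp1a (-0.17, SE 0.07) and its relative Fkbp1b (-0.22, SE 0.09), with lower values by each of their tested probes. Fkbp8, which is also in the chaperone list, had the fourth smallest p.

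**Figure D4:**
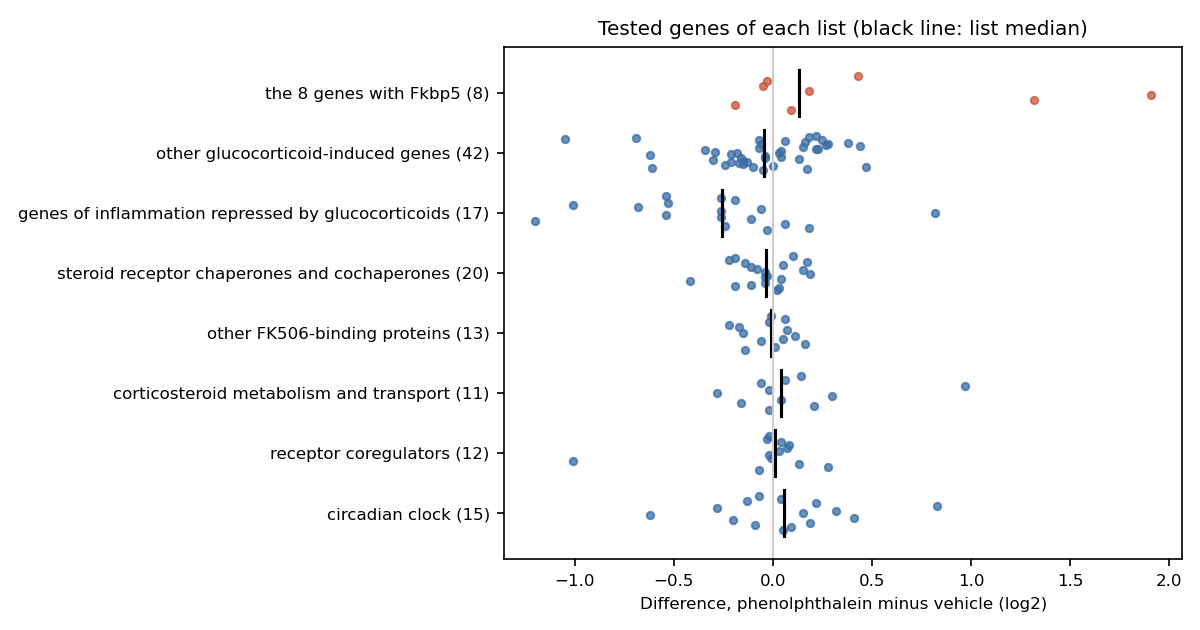
Difference between phenolphthalein and vehicle (log2, x axis) for each tested gene of the 8 genes and of 7 other lists (rows, with the number of genes tested; vertical scatter only separates points). Black lines are list medians, from -0.26 for genes of inflammation to 0.13 for the 8 genes.

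Hormone metabolism and the mineralocorticoid receptor gave no common direction. Of 16 genes listed, 11 were tested, with a median of 0.04, 6 above 0 and 5 below, and the limma fit called 0. Abcb1b, a P-glycoprotein gene whose product exports corticosteroids among other substrates, was at 0.97 (SE 0.35, limma adjusted p = 0.53) by its brightest probe, and its 3 probes ranged from 0.67 to 2.1. The brightest read -0.27, -1.07 and -0.83 in vehicle and 0.81, -0.48 and 0.41 in phenolphthalein, so the groups overlapped at phenolphthalein replicate 2. The mineralocorticoid receptor Nr3c2 was at -0.28 (SE 0.16), with phenolphthalein replicate 1 lowest at -0.38. The 5-alpha reductase gene Srd5a2 was at -0.16 (SE 0.10) and the peroxisomal enzyme gene Hsd17b4 at 0.14 (SE 0.11). Hsd11b2, singled out as the enzyme that opposes Hsd11b1, read 5.61, 5.48 and 5.55 in vehicle and 4.99, 5.59 and 6.0 in phenolphthalein, a difference of -0.02 with the wider spread in phenolphthalein. H6pd, which supplies NADPH to Hsd11b1, was at 0.04 (SE 0.08).

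Of 19 receptor coregulators listed, 12 were tested, 6 on each side of 0, with a median of 0.01 and 0 called by limma, also at an unadjusted p under 0.05. Foxa1, a pioneer factor that opens chromatin for steroid receptors, read -2.98, -4.53 and -2.90 in vehicle and -4.69, -4.16 and -4.58 in phenolphthalein, differing by -1.01 (SE 0.44; adjusted p = 0.574 by limma). Vehicle replicate 2 lay among the phenolphthalein arrays here, as it did for no probe of Fkbp5. Ppargc1a was at 0.28 (SE 0.17), Hdac2 at 0.08 (SE 0.06) and Hdac3 at 0.07 (SE 0.06). Of the 3 tested probes of Hdac3, 1 was higher and 2 were lower, the lowest at -0.01.

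Clock genes were examined because corticosterone follows a daily rhythm and the labels give no time of day. Of 19 listed, 15 were tested, 9 above 0 and 6 below, with a median of 0.06, and 0 were called by limma or at an unadjusted p under 0.05. The clock repressor Ciart was at 0.83 (SE 0.81), Bhlhe40 at 0.41 (SE 0.35), Nr1d1 at 0.32 (SE 0.24) and Per1 at -0.62 (SE 0.40). The other tested probe of Per1 was at -0.06. The output gene Dbp, named after its values were seen, read 6.32, 5.21 and 5.56 in vehicle and 5.64, 5.20 and 6.42 in phenolphthalein. Ciart read -2.14, -4.61 and -3.17 in vehicle and -2.13, -3.97 and -1.33 in phenolphthalein. Both were lowest of their group in replicate 2, where Fkbp5 stood at 1.52 in vehicle and 3.84 in phenolphthalein. Per2, Per3, Cry1, Cry2, Nr1d1, Nr1d2 and Tef were also lowest of the phenolphthalein arrays in replicate 2. Bmal1, Npas2, Nfil3 and Per1 were highest there, and Clock and Bhlhe40 lay between. The list's median level relative to each gene's vehicle mean was -0.10 in both phenolphthalein replicates 1 and 2. That median is taken over genes that went in opposite directions. Of the 15 clock genes, 10 had their lowest vehicle value in replicate 2, against 40.0% of all items. Their part in the differences of Fkbp5 was not tested.

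The tissue label was checked against segment markers, and tissue from nearby organs was looked for. All 10 proximal tubule markers were tested, with summed levels of 1680 to 1720 in vehicle and 1600 to 1770 in phenolphthalein. So were 10 of 11 distal nephron and collecting duct markers, with summed levels of 626 to 730 and 634 to 671. Of 10 adrenal cortex markers, 4 were tested, and the defining genes Cyp11b1, Cyp11b2, Star, Mc2r and Nr5a1 were well above background on no array. The 4 tested, Cyp11a1, Cyp21a1, Hsd3b1 and Fdx1, were well above background on all 6 arrays. Hsd3b1 read -0.55, -0.38 and -0.43 in vehicle and 0.76, -0.07 and -0.74 in phenolphthalein, and the other 3 had differences from -0.16 to -0.06. Of 10 adipocyte markers, 8 were tested, with summed levels of 2.82 to 3.14 and 2.20 to 4.11. Liver markers, of which 13 of 14 were tested, had summed levels of 14.3 to 32.4 and 19.7 to 38.2. Of these, 11 had differences above 0 and 2 below, with a median of 0.51 against -0.02 over all items. That median ranged from -0.03 to 0.81 with 1 array left out, and 0 passed in the limma fit at an adjusted p under 0.05. Among the phenolphthalein arrays, 10 of the 13 liver markers were highest in replicate 2, against 30.1% of all items. The part of these markers in the difference of Fkbp5 was not tested.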

How the data were processed

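Spot intensity was deposited by the authors as Agilent Feature Extraction 10.7.1.1 output, background-subtracted and detrended within each array and not normalized between arrays, per the file headers; the submitters' processing notes name version 10.7. The deposited value table holds a ratio, which equals the intensity over the array's 75th percentile. Within each group, its columns and the scanner files carry different replicate numbers for equal values, so which animal a replicate number names is unsettled, while the groups are the same. It served as an alternative (0 columns left out).

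Values are log2 intensity minus the log2 of the array's 75th percentile of the 61657 non-control probes. Between 64.8% and 72.1% of the probes were well above background, 0 were saturated, and 2 to 14 outlier spots per array were set to missing. The number of arrays limits the precision. Probes were named through RefSeq accessions with a GRCr8 gene table (27460 matched, 34197 did not); the array's annotation is on rn4, so no probe coordinates are given. The brightest probe stood for a gene, and 34417 items passed the filter. The fit across all items used limma 3.58.1 under R 4.3.3 (intensity trend, two-sided, Benjamini-Hochberg over all items, threshold 0.05), checked on simulated data. Summaries used Python 3.11.15. The vehicle arrays shared 1 slide, phenolphthalein replicate 1 had another, and replicates 2 and 3 the third.

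The 8 genes and the other lists were chosen with earlier results of these data known. Named were the 8 genes, the 4 smallest p of each list other than the cell type markers, the defining cell type markers and the 5 genes with the highest r with Fkbp5, leaving out provisional names. Alternatives were normexp (offset 50, on spot and background medians, since the files hold no spot means), quantile normalization, median centring, the percentile over probes detected on all 6 arrays, stricter or no filter, the median of a gene's probes, outlier spots kept, no trend, slide as a random block, the replicate number as a block, the value table and leaving out each array. Deviations from the group means showed no pairing by number (r = -0.0061, -0.015 and 0.025).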

Additional observations from a re-analysis of the deposited data

How the results depend on the processing

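With all 6 arrays, the 95 alternative values of the 8 genes stayed within the pooled SD between animals of the reported difference. That SD was wide for Fkbp5 (0.65) and Zbtb16 (1.29), where vehicle replicate 2 was low. For these genes, staying within it says little. Of all 143 values, rounded to 2 decimals, 5 changed sign, all of Errfi1 or Nr3c1 (-0.25 to 0.09 and -0.13 to 0.03 with 1 array left out, and 0.01 for Errfi1 with quantile normalization), and Hsd11b1 was at -0.00 without phenolphthalein replicate 1. Fkbp5 ranged from 1.29 to 1.40 with all 6 arrays and from 0.79 to 1.61 with 1 left out, the lowest without vehicle replicate 2. Tsc22d3 ranged from 0.42 to 0.49 and from 0.28 to 0.58, and Zbtb16 from 1.02 to 1.92 and from 0.95 to 2.69. Zbtb16 was 1.13 by the median of its probes, and the filter on all 6 arrays left it out. With the replicate block, Fkbp5 was at 1.32 and 0 items were higher and 0 lower (limma). The same numbers share no animal in the labels, and the block changed no call. All other alternatives with all arrays also gave 0 and 0, and leaving out 1 array gave 0 to 1 items higher and 0 to 1 lower, none of them among the lists. Taking slide as a block could not tell slide from group, since no slide held both groups. With all 6 arrays, the 180 alternative list medians stayed within the spread between arrays, and of all 270 medians 20 changed sign; the median of the other glucocorticoid-induced genes was 0.021 without vehicle replicate 3. The causes were not tested. Dim signal limits Zbtb16 and Ptgs2, and 3 arrays per group limit every value.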
